A study of Homo sapiens with 44 samples.

Results

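AP-1 and early response factors were followed in cultured colon fibroblasts as a list of 9 genes. The list was set by gene name, with earlier results of these data known. The list held the FOS family (FOS, FOSB, FOSL1 and FOSL2), the JUN family (JUN, JUNB and JUND), the related factor ATF3 and the zinc finger factor EGR1. All 9 were among the 40663 gene symbols of the table. Of these 9, 6 (FOSL1, FOSL2, JUN, JUNB, JUND and EGR1) were among the 9513 genes with enough counts to be tested, and FOS, FOSB and ATF3 were not.

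The data were bulk RNA-seq libraries of Ccd-18Co, a fibroblast line from human colon, and every group was this same line. Cells were kept without serum for 72 h and were then left unstimulated or given 1 of 10 cytokines for 24 h, with 4 replicates in each of the 11 groups. TNF, IL-17A, OSM, IL-6, IL-22, IL-13, TGFB1 (TGF-β1), IFNA (IFNα) and IFNG (IFNγ) were used at 10 ng/ml, and IL-1B (IL-1β) at 0.1 ng/ml per the labels, while another passage of the study gives a lower IL-1β dose. The labels do not say whether replicates were grown as separate cultures, so p-values measure the spread between these libraries, which may be technical. The unstimulated libraries are the control of every cytokine, and the differences from them therefore share these 4 libraries.

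The libraries held 742173 to 2213424 counts in total (median 1480883). Levels are given as CPM, counts scaled to a common normalized library size, as mean ± SD with n = 4 in each group. A value of 3 counts in a library was treated as the floor, which corresponded to 1.39 to 3.85 CPM. All 10 fibroblast markers passed the count filter and their summed level was 17400 to 52500 CPM over the 44 libraries. The defining markers EPCAM and CDH1 (epithelium), PECAM1 and CDH5 (endothelium) and PTPRC (leukocytes) were never over 3 counts. Other markers had counts. Of 7 epithelial markers 2 passed the filter, with a summed level of the 7 up to 40.6 CPM (IFNγ). Of 6 leukocyte markers 1 passed, with a summed level of 38 to 73.8 CPM with IFNα. Of 6 smooth muscle and pericyte markers 4 passed, with a summed level from 236 CPM (IL-1β) to 1140 CPM (TGF-β1). In bulk libraries, fewer cells that use a gene and less of its RNA in each cell cannot be told apart.

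AP-1 is a dimer of basic leucine zipper proteins, in which a FOS protein pairs with a JUN protein or JUN proteins pair with each other, and it binds the short TRE motif in promoters and enhancers. FOS, FOSB, JUNB, ATF3 and EGR1 are classic immediate early genes, whose RNA appears soon after a stimulus and is quickly degraded. FOSL1 (Fra-1), FOSL2 (Fra-2) and JUND are longer lived members that often make up AP-1 in resting or chronically stimulated cells. In fibroblasts AP-1 is known as a regulator of matrix metalloproteinases and cytokines.

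The stretch of 250 bases before the RefSeq transcription start is shown for EGR1, the most abundant member, and for JUND and JUNB of the JUN family. The windows are written 5′ to 3′ on the strand of the gene in GRCh38.p14, at chr5:138465229-138465478 (plus strand) for EGR1, chr19:18281623-18281872 (minus strand) for JUND and chr19:12791236-12791485 (plus strand) for JUNB. Capitals mark the CArG box, which binds SRF, in EGR1 and the cAMP response element TGACGTCA in JUND.
EGR1: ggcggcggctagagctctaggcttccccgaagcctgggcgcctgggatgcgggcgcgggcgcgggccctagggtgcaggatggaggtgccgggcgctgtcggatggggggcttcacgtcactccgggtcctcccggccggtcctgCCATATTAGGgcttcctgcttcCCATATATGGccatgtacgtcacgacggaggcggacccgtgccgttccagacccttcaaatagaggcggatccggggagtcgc
JUND: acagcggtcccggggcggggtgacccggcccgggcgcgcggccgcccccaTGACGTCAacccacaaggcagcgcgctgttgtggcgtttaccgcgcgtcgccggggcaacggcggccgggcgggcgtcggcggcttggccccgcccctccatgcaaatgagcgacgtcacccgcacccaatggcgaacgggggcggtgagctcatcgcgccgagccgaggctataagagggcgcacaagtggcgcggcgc
JUNB: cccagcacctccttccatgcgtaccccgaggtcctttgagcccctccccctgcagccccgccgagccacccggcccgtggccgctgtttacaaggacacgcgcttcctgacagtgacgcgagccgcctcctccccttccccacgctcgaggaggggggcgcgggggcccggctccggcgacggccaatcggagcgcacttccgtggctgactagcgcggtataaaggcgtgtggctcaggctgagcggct

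The EGR1 window held 2 CArG boxes, starting 105 and 83 bases before the transcription start, a motif that 1.16% of 35116 windows of this length contain. It also held 1 EGR motif (GCGNGGGCG, in 8.41% of windows) at 198 bases before the start and 1 STAT motif (TTCNNNGAA, in 6.57%) at 228 bases. The JUND window held 1 cAMP response element at 200 bases before the start (in 1.65% of windows). The TRE motif TGANTCA (in 6.57% of windows) and the NF-kB motif (in 5.21%) were not found in any of the 8 windows, on either strand, and FOSL1 was not among the promoters used. The ETS core CCGGAA (in 14.5% of windows) was found at 205 bases before the start of FOSB. A match is a description of letters, and its absence says only that the letters are not in this window.

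FOS, the partner of JUN in the early phase of a response, was close to absent in all groups 24 h after stimulation. It was at 0 in 19 of 44 libraries and over 3 counts in 9, with at most 10 counts (IL-22 replicate 4). The 4 unstimulated libraries held 1, 0, 0 and 2 counts, and the 4 IL-22 libraries held 5, 1, 2 and 10, so these groups overlapped. FOSB was at 0 in 40 libraries and never over 3 counts.

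ATF3, a stress-induced factor that pairs with JUN proteins, was at 0 in 23 libraries and over 3 counts in 5. Its 4 IFNγ libraries held 13, 1, 7 and 3 counts, against 0, 1, 0 and 0 in unstimulated cells, and the groups touched at 1 count. Against 3 counts in each unstimulated library, the mean of 4.71 CPM under IFNγ was at least 2.41-fold higher. FOS, FOSB and ATF3 were not tested, since too few libraries had enough counts.

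Among members with measurable levels, EGR1 and FOSL2 were the most abundant also after division by transcript length. In unstimulated cells EGR1 was at 251 ± 63.4 CPM per kb, FOSL2 at 63.1 ± 27.8, FOSL1 at 14.9 ± 8.7, JUND at 10.8 ± 5.85 and JUN at 4.29 ± 0.565 CPM per kb. Lengths were those of the reference transcripts (1702 bases for FOSL1 and 6713 for FOSL2), which may differ from the transcripts present. JUND and JUNB transcripts have a GC content of 69.9% and 64.9%, higher than in 99.5% and 95.5% of protein-coding genes. Of protein-coding genes over 65% GC, 8.57% passed the count filter, against 70.1% of those up to 40% GC, and the part of GC content in the levels of JUND and JUNB was not tested.

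**Figure D1:**
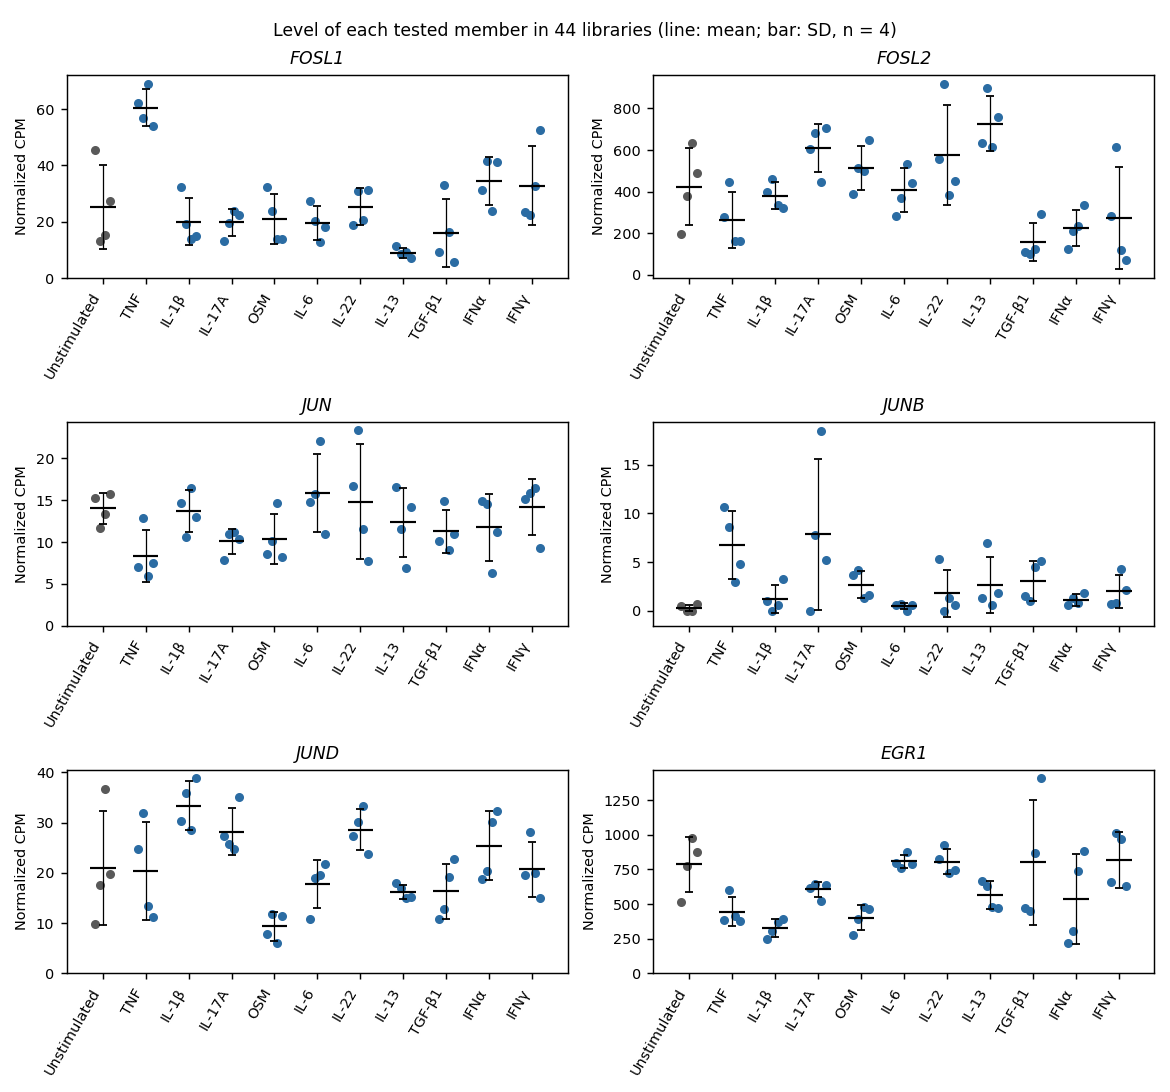
Normalized CPM (vertical axis, linear) of the 6 tested members in each of 44 libraries by group (horizontal axis). Points are libraries, lines are means and bars are SD (n = 4). The 4 TNF libraries lie above every other group for FOSL1 (54.1 CPM or more), while FOSL2 and EGR1 spread widely within several groups.

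Across the 11 groups, 5 of the 6 tested members differed in edgeR's quasi-likelihood test of any difference, against 35.7% of all genes tested. The adjusted p was 3.45e-05 for FOSL1, 0.000231 for FOSL2, 0.000619 for EGR1, 0.00217 for JUND and 0.00776 for JUNB. JUN did not pass (adjusted p = 0.481). The span from the highest to the lowest group mean was 6.7-fold for FOSL1, 4.66-fold for FOSL2, 3.58-fold for JUND, 2.49-fold for EGR1 and 1.9-fold for JUN.

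TNF was the cytokine with the highest FOSL1, which encodes Fra-1. The 4 TNF libraries held 62.1, 56.8, 69 and 54.1 CPM, and the unstimulated libraries held 45.5, 13.1, 15.5 and 27.3 CPM. Every TNF library was above every unstimulated one, although unstimulated replicate 1 stood close to them. FOSL1 rose to 60.5 ± 6.57 from 25.4 ± 14.8 CPM (log2 difference 1.23, SE 0.37, edgeR adjusted p = 0.0218). FOSL1 and JUNB were the 2 members called higher with TNF, where 5.37% of all tested genes were called higher and 6.09% lower. The FOSL1 call was lost in 3 of 8 fits that left out 1 library, namely without unstimulated replicate 2 (adjusted p = 0.107), unstimulated replicate 3 (0.0851) or TNF replicate 3 (0.0591), with differences of 1.04, 1.07 and 1.18.

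IL-1β, which acts through many of the same pathways as TNF, was not followed by higher FOSL1. Its libraries held 32.3, 19.2, 14 and 14.9 CPM, and the mean of 20.1 ± 8.44 CPM was below that of unstimulated cells without passing the test (log2 difference -0.34, 95% interval -1.11 to 0.42). Tested directly, FOSL1 was higher with TNF than with IL-1β (log2 difference 1.58, SE 0.38, edgeR adjusted p = 0.0212), and the libraries did not overlap. In this comparison 0.452% of tested genes were called higher with TNF and 0.694% lower. The call was lost in 4 of 8 fits without 1 library, with differences of 1.45 to 1.93 over the 8 fits and a highest adjusted p of 0.0919 (without IL-1β replicate 3). The other 3 were those without IL-1β replicates 2 (0.0847) or 4 (0.0776) or TNF replicate 3 (0.0719). The dose of IL-1β was lower than that of TNF, so cytokine and dose cannot be told apart.

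IL-13, a type 2 cytokine, was at the other end of the FOSL1 order. Its libraries held 11.3, 8.49, 9.23 and 7.1 CPM, all below the lowest unstimulated library. FOSL1 fell to 9.03 ± 1.74 CPM (log2 difference -1.49, SE 0.41, edgeR adjusted p = 0.0262), the only member called with IL-13, where 1.53% of tested genes were called higher and 2.4% lower. Without unstimulated replicate 1 the difference was -1.03 (adjusted p = 0.215). The call was also lost without unstimulated replicate 4 (0.0664) or without IL-13 replicates 2 (0.0806), 3 (0.0731) or 4 (0.0963).

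The order of mean FOSL1 levels below TNF was IFNα (34.5 ± 8.48 CPM), IFNγ (32.9 ± 14.1), IL-22 (25.4 ± 6.61), unstimulated, OSM (21 ± 8.8), IL-1β, IL-17A (19.8 ± 4.66), IL-6 (19.6 ± 6.1), TGF-β1 (16.1 ± 12) and IL-13. Of the 10 neighbouring pairs in this order, 9 overlapped in their libraries, the exception being TNF and IFNα.

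FOSL2, which encodes Fra-2 and was the most abundant FOS family member, was lowest with TGF-β1. The TGF-β1 libraries held 139, 95, 133 and 401 counts (108, 121 and 294 CPM in replicates 1, 3 and 4, and less than these in replicate 2), and the unstimulated libraries were at 193, 376, 634 and 491 CPM. TGF-β1 replicate 4 lay above unstimulated replicate 1, so the groups overlapped. FOSL2 fell to 156 ± 92.5 from 424 ± 186 CPM (log2 difference -1.43, SE 0.41, edgeR adjusted p = 0.0277), and it was the only member called with TGF-β1, where 2.61% of tested genes were called higher and 3.08% lower. The call was lost in 5 of 8 fits without 1 library. These were the fits without unstimulated replicates 3 (adjusted p = 0.118) or 4 (0.0705) and without TGF-β1 replicates 1 (0.106), 2 (0.105) or 3 (0.101), and over all 8 the difference was -1.91 to -1.14.

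The largest called difference between cytokines was that of FOSL2 between TGF-β1 and IL-13, cytokines that both act on fibroblast matrix genes. The IL-13 libraries held 633, 901, 615 and 757 CPM, all more than the highest TGF-β1 library. FOSL2 was lower with TGF-β1 (log2 difference -2.21, SE 0.42, edgeR adjusted p = 0.000145), in a comparison where 6.05% of tested genes were called higher with TGF-β1 and 6.39% lower. It was called in all 8 fits without 1 library, at -2.72 to -2.05. IL-13 alone did not pass against unstimulated cells for FOSL2 (727 ± 132 CPM, log2 difference 0.78, 95% interval -0.02 to 1.58).

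Mean FOSL2 was highest with IL-13, followed by IL-17A (609 ± 117 CPM), IL-22 (577 ± 239), OSM (513 ± 106), unstimulated, IL-6 (406 ± 106), IL-1β (379 ± 64.8), IFNγ (272 ± 245), TNF (262 ± 134), IFNα (224 ± 86.2) and TGF-β1. All 10 neighbouring pairs overlapped. The widest spread was under IFNγ, where the libraries held 283, 613, 118 and 71.9 CPM.

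Together, FOSL1 and FOSL2 accounted for nearly all FOS family RNA per kb, in proportions that differed between groups. FOSL2 made up 78 ± 18.1% of the summed CPM per kb of FOS, FOSB, FOSL1 and FOSL2 in unstimulated cells and 94.7 ± 1.97% with IL-13. With TNF the shares of FOSL1 (49.6 ± 13.1%) and FOSL2 (49.5 ± 12%) were near equal, while FOSL1 took 38.7 ± 10% with IFNα and 39.9 ± 26.9% (12.5% to 72.5%) with IFNγ. The share of FOSL1 ranged from 8.78% to 48% over the unstimulated libraries and from 32.6% to 62.7% over the TNF libraries, so these overlapped. These shares rest on reference transcript lengths and were not tested.

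**Figure D2:**
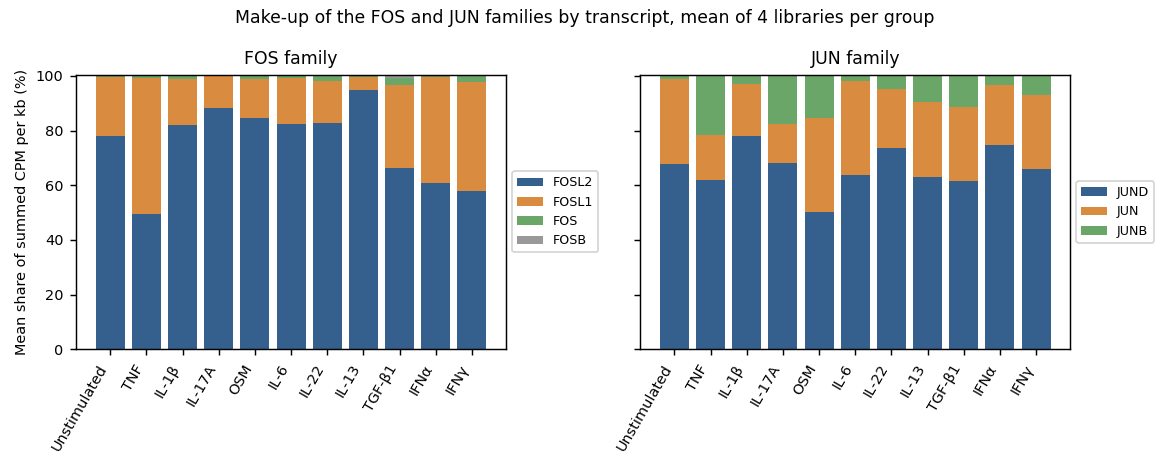
Mean share (vertical axis, percent) of each transcript in the summed CPM per kb of the FOS family (left) and of the JUN family (right), by group, as the mean of 4 libraries. FOSL2 takes 94.7% of the FOS family with IL-13 and 49.5% with TNF, and JUNB takes 1.27% of the JUN family in unstimulated cells and 21.7% with TNF. Unstimulated JUNB is at or under the floor, so its share is not a measured level.

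JUN and JUND carried most of the JUN family RNA, and JUNB, an early response member, was almost absent without stimulation. The unstimulated libraries held 1, 0, 0 and 1 JUNB counts, which is at or under the floor. The TNF libraries held 15, 10, 4 and 9 counts (10.6, 8.61, 3 and 4.82 CPM), above every unstimulated library. JUNB rose with TNF (edgeR adjusted p = 0.00898), and the mean of 6.76 ± 3.46 CPM was at least 3.46-fold higher than 3 counts in each unstimulated library. It was called in all 8 fits without 1 library, and in a fit of only the 8 libraries compared it did not pass the count filter and was not tested. JUNB was over 3 counts in 15 of 44 libraries, with its highest counts in IL-17A and TNF libraries. Its passing of the 11-group filter thus leaned on the groups in which it was called. The tests with TNF and IL-17A are therefore not independent of the filter.

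JUNB was also called higher with IL-17A (edgeR adjusted p = 0.0303), where 0.599% of tested genes were called higher and 0.925% lower, but its libraries were uneven. They held 0, 10, 23 and 9 counts, so that IL-17A replicate 1 was no higher than unstimulated cells. The mean of 7.85 ± 7.76 CPM was at least 4.02-fold higher than the unstimulated floor. The call was lost in 6 of 8 fits without 1 library. These fits left out unstimulated replicates 1 (adjusted p = 0.0996), 2 (0.148), 3 (0.068) or 4 (0.0532) or IL-17A replicates 2 (0.0662) or 3 (0.169). At most 23 counts in any library stood behind JUNB, whose biological coefficient of variation of 0.742 was higher than that of 92.6% of tested genes.

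Other groups had JUNB between 0.457 ± 0.307 CPM (IL-6) and 3.07 ± 2.06 CPM (TGF-β1) and did not pass. TNF and IL-1β, compared directly, did not differ past the threshold for JUNB (6.76 ± 3.46 and 1.22 ± 1.41 CPM, edgeR adjusted p = 0.267). In the JUN family, JUNB took 1.27 ± 1.47% of the CPM per kb in unstimulated cells, 21.7 ± 5.52% with TNF and 17.5 ± 16.1% with IL-17A. The unstimulated share comes from counts at or under the floor, so it is not a measured level.

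JUND, a stable member that can restrain growth in fibroblasts, was lowest with OSM and highest with IL-1β, and neither passed against unstimulated cells. The OSM libraries held 7.92, 11.9, 6 and 11.5 CPM and the unstimulated libraries 9.79, 17.5, 36.6 and 19.8 CPM, with an overlap through unstimulated replicate 1. The log2 difference was -1.15 with a 95% interval of -1.86 to -0.44 (edgeR adjusted p = 0.0511), and without unstimulated replicate 1 it was -1.4 (adjusted p = 0.0119). With IL-1β the libraries held 30.3, 35.8, 28.6 and 38.9 CPM, and unstimulated replicate 3 lay among them. Without that library the difference was 1.11 (edgeR adjusted p = 0.0356), against 0.68 with it (adjusted p = 0.264).

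Mean JUND was 33.4 ± 4.8 CPM with IL-1β, 28.6 ± 4.1 with IL-22, 28.2 ± 4.64 with IL-17A, 25.4 ± 6.86 with IFNα, 20.9 ± 11.3 unstimulated, 20.7 ± 5.53 with IFNγ, 20.3 ± 9.68 with TNF, 17.8 ± 4.78 with IL-6, 16.4 ± 5.5 with TGF-β1, 16.3 ± 1.44 with IL-13 and 9.33 ± 2.85 with OSM. Of the 10 neighbouring pairs 9 overlapped, the exception being IL-13 and OSM.

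JUN, the partner common to most AP-1 dimers, varied least. Group means lay between 8.37 ± 3.1 CPM (TNF) and 15.9 ± 4.67 CPM (IL-6), with 14 ± 1.84 CPM in unstimulated cells. None of the cytokines passed for JUN. The TNF libraries held 7.06, 12.9, 6 and 7.5 CPM against 15.2, 11.7, 13.4 and 15.7 CPM unstimulated (log2 difference -0.75, edgeR adjusted p = 0.205). All 10 neighbouring pairs overlapped, and no library held more than 35 JUN counts.

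EGR1, an immediate early zinc finger factor that SRF and its partners switch on, was high in resting cells and lower after IL-1β and OSM. The unstimulated libraries held 517, 771, 980 and 878 CPM and the IL-1β libraries 246, 304, 372 and 393 CPM, with no overlap. EGR1 fell to 329 ± 66.9 from 787 ± 199 CPM (log2 difference -1.26, SE 0.29, edgeR adjusted p = 0.00295). It was the only member called with IL-1β, where 3.46% of tested genes were called higher and 3.92% lower. It was called in all 8 fits without 1 library, at -1.42 to -1.12.

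OSM, a cytokine of the IL-6 family, was followed by a similar level. The OSM libraries held 278, 391, 479 and 463 CPM, all below unstimulated replicate 1. EGR1 fell to 403 ± 91.3 CPM (log2 difference -0.97, SE 0.29, edgeR adjusted p = 0.0484), and it was the only member called with OSM, where 1.42% of tested genes were called higher and 2.54% lower. The call stood close to the threshold. It was lost in 7 of 8 fits without 1 library, each except that without unstimulated replicate 1, with adjusted p from 0.0668 (without OSM replicate 3) to 0.231 (without OSM replicate 1) and differences of -1.12 to -0.81 over the 8 fits.

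IL-6 itself, which shares the gp130 receptor chain with OSM, left EGR1 at 797, 763, 879 and 789 CPM. EGR1 was lower with OSM than with IL-6 (log2 difference -1, SE 0.29, edgeR adjusted p = 0.0498), without overlap, where 0.988% of tested genes were called higher with OSM and 1.68% lower. This call was lost in each of the 8 fits without 1 library (adjusted p 0.0664 to 0.235, differences -1.1 to -0.85).

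With TNF, EGR1 was at 388, 602, 413 and 379 CPM, and TNF replicate 2 was the only one that reached the range of the unstimulated libraries. The difference of -0.82 did not pass (SE 0.29, edgeR adjusted p = 0.059), and it passed without unstimulated replicate 1 (adjusted p = 0.0263) or TNF replicate 2 (0.0375). It also passed in a fit of only these 8 libraries (edgeR adjusted p = 0.0335) and by DESeq2's Wald test (adjusted p = 0.0484). TNF and IL-1β did not differ past the threshold (log2 difference 0.44, 95% interval -0.15 to 1.03).

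Mean EGR1 was 817 ± 199 CPM with IFNγ, 807 ± 50.1 with IL-6, 806 ± 92.3 with IL-22, 800 ± 451 with TGF-β1, 787 ± 199 unstimulated, 605 ± 56.1 with IL-17A, 564 ± 100.9 with IL-13, 536 ± 322 with IFNα, 446 ± 105 with TNF, 403 ± 91.3 with OSM and 329 ± 66.9 with IL-1β. All 10 neighbouring pairs overlapped. The TGF-β1 libraries (469, 450, 871 and 1410 CPM) and the IFNα libraries (220, 308, 735 and 882 CPM) were widely spread.

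No member was called with IL-6, IL-22, IFNα or IFNγ, or between IFNα and IFNγ. With IL-6, edgeR called 0.0105% of all tested genes higher and 0% lower (233 genes at an unadjusted p under 0.05, 1 gene called by DESeq2). With IL-22, edgeR called 0% higher and 0% lower (1037 genes at an unadjusted p under 0.05, 96 called by DESeq2), and none of the members had an unadjusted p under 0.05 with either cytokine. The interferons moved many other genes, with 4.99% called higher and 4.86% lower for IFNα and 5.52% and 5.13% for IFNγ. Between IFNα and IFNγ 4.93% were called higher with IFNα and 4.46% lower. At an unadjusted p under 0.05 there was 1 member in each of these 3 comparisons, and DESeq2's Wald test called none of the members in them.

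**Figure D3:**
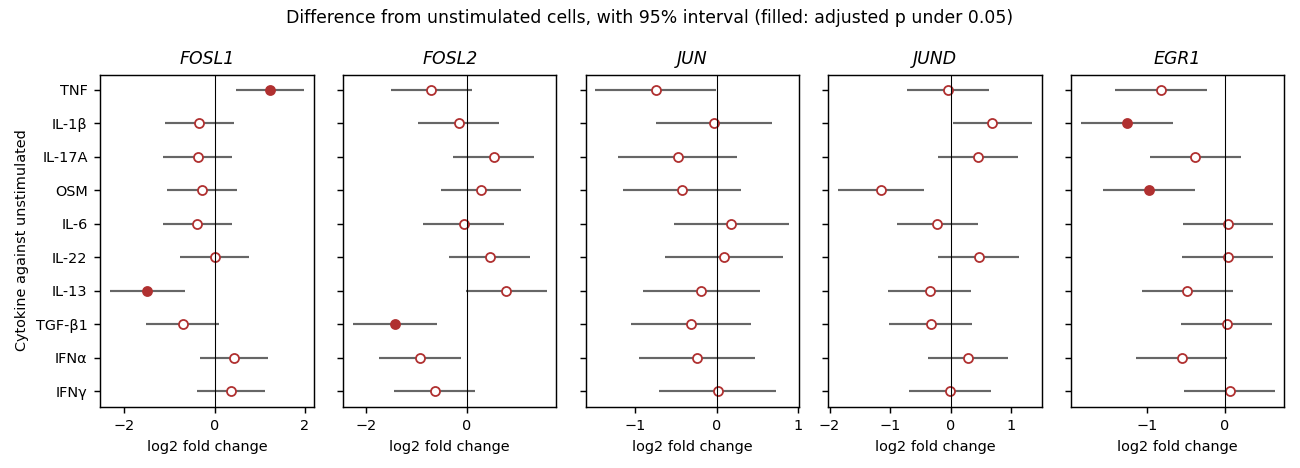
Log2 fold change against unstimulated cells (horizontal axis) with its 95% interval for 5 members under each cytokine (vertical axis), and filled points where the adjusted p was under 0.05. Filled points are FOSL1 with TNF (1.23) and IL-13 (-1.49), FOSL2 with TGF-β1 (-1.43) and EGR1 with IL-1β (-1.26) and OSM (-0.97), and JUNB is left out because its control was at the floor.

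The spread of several members among replicates followed a property of the library. The TMM normalization factor, by which edgeR corrects library size for differences in composition, ranged from 0.85 to 1.19. It was 0.93 to 1.19 in unstimulated libraries, 0.85 to 0.98 with IL-13, 0.91 to 0.96 with IL-1β, 1.05 to 1.11 with OSM and 0.93 to 1.15 with TGF-β1, so it differed between groups as well as within them. Deviations of log2 CPM from the group mean were compared with those of the log2 factor over 44 libraries, for 6 members.

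FOSL2 followed the factor most closely (Pearson's r = -0.93, Spearman's rho = -0.89). Its permutation p within groups was 1e-05 for both, the smallest that 100000 draws give, and 2e-05 after Benjamini-Hochberg adjustment over the 6 members. Its r was -0.91 without unstimulated replicate 1 and IFNγ replicate 2, the libraries farthest from the median. JUND (r = -0.75, rho = -0.72, -0.71 without these libraries) and EGR1 (r = -0.71, rho = -0.75, -0.72 without them) followed with permutation p of 1e-05 (2e-05 adjusted) for both measures.

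FOSL1 ran the other way (r = 0.55, rho = 0.42, 0.48 without these libraries), with permutation p of 0.003 and 0.0152 (0.0045 and 0.0227 adjusted). JUN (r = -0.17, rho = -0.11, -0.2 without them; permutation p of 0.271 and 0.524, 0.326 and 0.629 adjusted) and JUNB (r = -0.03, rho = -0.04, -0.12 without them; permutation p of 0.822 and 0.808 before and after adjustment) did not. The factor is a divisor of every CPM and comes from the same counts, and 23.5% of tested genes had a slope on it that passed, so a relation to it was not particular to these members. The absolute r of FOSL2 was higher than that of 99% of tested genes.

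**Figure D4:**
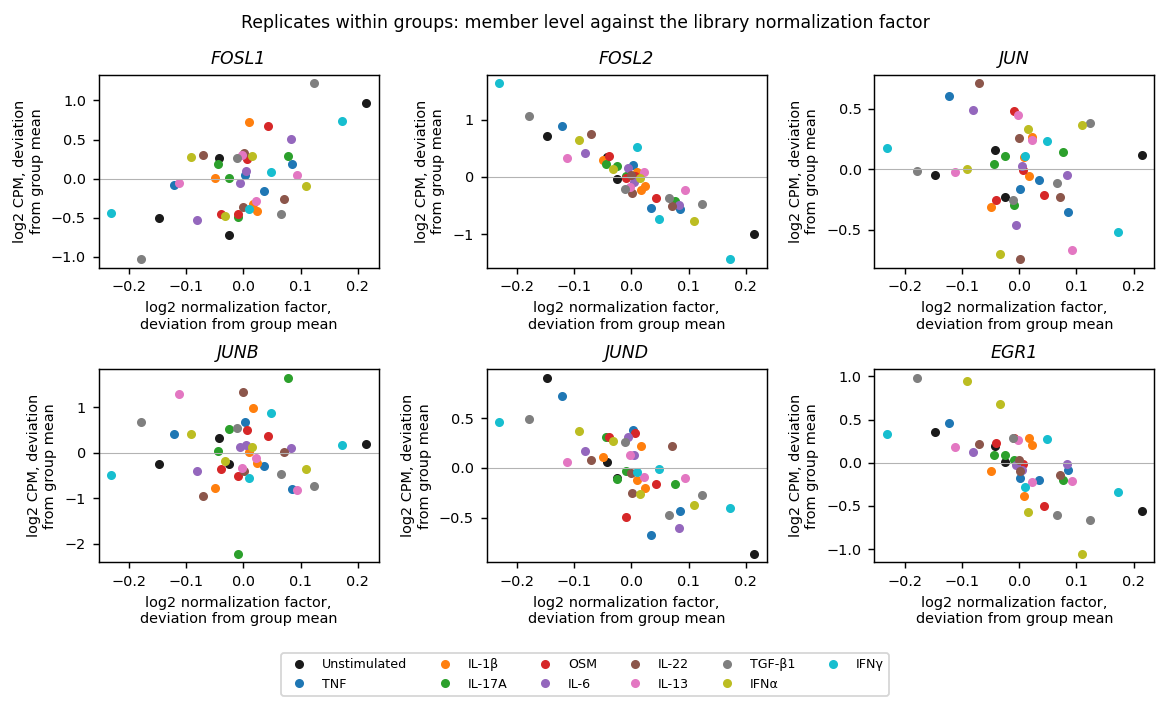
Deviation of log2 CPM from the group mean (vertical axis) against the deviation of the log2 normalization factor (horizontal axis) for 6 members, with 44 libraries coloured by group. Points of FOSL2 fall along a line (r = -0.93), those of JUND and EGR1 more loosely (-0.75 and -0.71), FOSL1 runs upward (0.55) and JUN and JUNB show no slope (-0.17 and -0.03).

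A model with the log2 factor beside the groups, chosen after the data were seen, therefore compares members after a linear adjustment for the factor. The unstimulated factors were 1.19, 1.01, 0.93 and 1. None lay in the range of OSM (1.05 to 1.11). Only that of replicate 3 lay in the ranges of IL-13 (0.85 to 0.98) and IL-1β (0.91 to 0.96). Differences from unstimulated cells with these cytokines therefore rest largely on the fitted slope, which was -6.03 for FOSL2. It called 18.4% of tested genes in either direction with TNF, 12.8% with IL-1β, 2.93% with IL-17A, 5.01% with OSM, 0.0105% with IL-6, 1.03% with IL-22, 9.19% with IL-13, 9.5% with TGF-β1, 17.9% with IFNα and 18.2% with IFNγ. Between cytokines it called 1.41% for TNF against IL-1β, 12.2% for IFNα against IFNγ, 3.65% for OSM against IL-6 and 11% for TGF-β1 against IL-13. Where the factor itself moves with a cytokine, this model takes that part away from the cytokine.

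In this model FOSL2 was lower with 5 cytokines and higher with OSM. The log2 differences were -1.51 with IFNα (edgeR adjusted p = 8.24e-10), -1.26 with TGF-β1 (4.26e-07), -1.16 with IFNγ (4.49e-07), -0.85 with TNF (8.58e-05) and -0.79 with IL-1β (0.000506), and 0.8 with OSM (0.000593). With IL-13 the difference turned to -0.11 (adjusted p = 0.777) from 0.78. FOSL2 stayed lower with TGF-β1 than with IL-13, at -1.14 (adjusted p = 7.47e-06) in place of -2.21, and was higher with OSM than with IL-6 (0.74, adjusted p = 0.00192).

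EGR1 was lower in this model with IL-1β (-1.62, edgeR adjusted p = 1.33e-07), IL-13 (-1.01, 0.00146), IFNα (-0.96, 0.000623), TNF (-0.89, 0.00102) and OSM (-0.71, 0.0285). It was lower with OSM than with IL-6 (-0.81, edgeR adjusted p = 0.0112) and with IFNα than with IFNγ (-0.92, 0.00154), and higher with TGF-β1 than with IL-13 (1.06, 0.000548). The calls for EGR1 with IL-1β and OSM therefore stood in both models, and those with TNF, IL-13 and IFNα in the second alone.

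FOSL1 stayed higher with TNF (1.44, edgeR adjusted p = 0.00104) and higher with TNF than with IL-1β (1.27, 0.0337), and its lower level with IL-13 no longer passed (-0.84, 0.202). JUNB, which entered under the same count filter, kept its calls with TNF (edgeR adjusted p = 0.00756) and IL-17A (0.0229). JUN and JUND had no call in this model either, and for JUND with OSM the difference was -0.8 (adjusted p = 0.124).

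**Figure D5:**
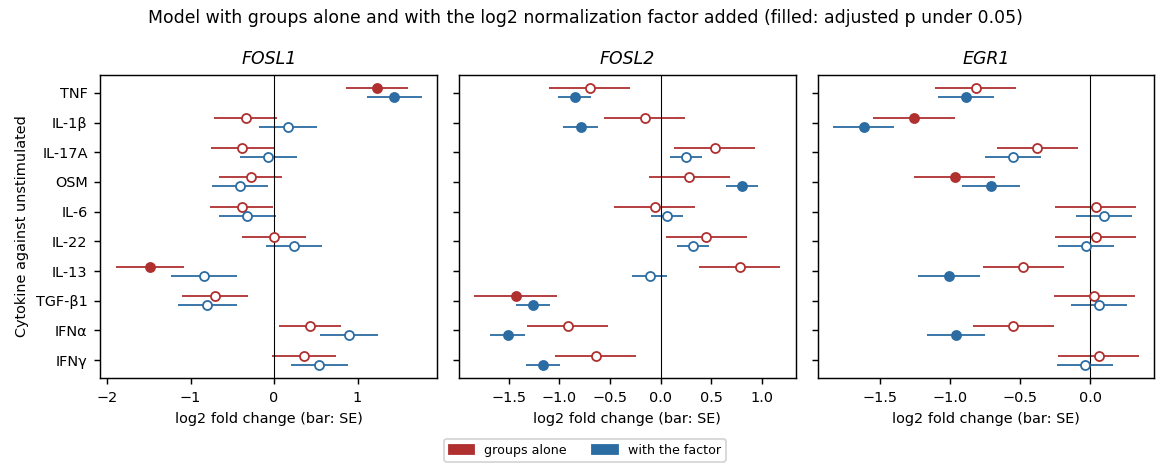
Log2 fold change against unstimulated cells (horizontal axis, bars are SE) for FOSL1, FOSL2 and EGR1 under each cytokine (vertical axis), from the model with groups alone (red) and with the log2 normalization factor added (blue), with filled points at an adjusted p under 0.05. FOSL1 with TNF, FOSL2 with TGF-β1 and EGR1 with IL-1β and OSM are filled in both, and FOSL2 with IFNα moves from -0.92 to -1.51.

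The wider AP-1 network was read through 4 lists chosen with earlier results of these data known, so that their counts are descriptions. Of 24 textbook AP-1 targets (matrix proteases, cytokines and growth factors, several of which NF-kB also drives), 22 were tested. Any link between a member and these targets was not tested. With TNF, where FOSL1 and JUNB were higher, 12 were called higher and 2 lower (5.37% and 6.09% of all tested genes). The median log2 difference was 2.11 against -0.02 over all tested genes. The interleukin CXCL8 (16700 ± 4580 from 170 ± 257 CPM, log2 difference 6.62, SE 0.93, edgeR adjusted p = 9.86e-07), the chemokine CCL2 (4.6, SE 0.28, 2.58e-16) and the metalloproteinase MMP10 (4.42, SE 0.39, 1.26e-11) led the rise, while VIM (-0.68) was among those that fell.

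With IL-1β, where FOSL1 was not higher, 11 targets were called higher and 3 lower (3.46% and 3.92% of all tested genes). The median was 1.77 against -0.01. The largest rises were CXCL8 (log2 difference 6.84), IL6 (6.06) and PTGS2 (4.45), and VIM (-0.83) and CD44 (-0.72) were among those that fell. TNF and IL-1β differed in 3 targets, with PLAU (0.98) and MMP1 (0.95) higher and IL6 (-1.75) lower under TNF. Between them 0.452% of all tested genes were called higher with TNF and 0.694% lower.

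With IL-13, where FOSL1 was lower, 1 target was called higher and 9 lower (1.53% and 2.4% of all tested genes). The median was -0.81 against -0.05. MMP3 went to 59.6 ± 30.9 from 636 ± 163 CPM (log2 difference -3.41, edgeR adjusted p = 3.56e-09), CXCL8 to 12.4 ± 18.7 CPM (-3.75, adjusted p = 0.0113) and AREG, an EGFR ligand, to 1.47 ± 1.77 from 21.3 ± 18.7 CPM (adjusted p = 0.0356), whereas VIM rose (0.84). With TGF-β1, where FOSL2 was lower, 8 were called higher and 3 lower (2.61% and 3.08% of all tested genes). The median was 0.99 against -0.02. IL11 (3.85), MMP10 (3.7) and AREG (3.16) led the rise, with CCL2 (-1.22), PLAU (-0.91) and CD44 (-0.7) lower. Between TGF-β1 and IL-13, 11 targets were higher with TGF-β1 and 2 lower (6.05% and 6.39% of all tested genes). The median was 1.57 against 0.03. The higher ones were led by AREG (187 ± 123 against 1.47 ± 1.77 CPM), MMP10 (log2 difference 6.88) and IL11 (94.2 ± 36.1 against 1.08 ± 0.435 CPM). CCL2 (-1.51) and VIM (-0.97) were lower.

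IFNα raised 7 targets and lowered none (median 0.58 against -0.01), where 4.99% of all tested genes were called higher and 4.86% lower. IFNγ raised 6 and lowered none (0.8 against -0.01), where these shares were 5.52% and 5.13%. CCL2 came first in both (2.6 and 2.96), and no AP-1 member was called higher with either interferon. IFNα and IFNγ differed in 4 targets, among them ITGA5 (1.78) and MMP1 (0.82), which were higher, and TIMP1 (-0.65), which was lower under IFNα. Between them 4.93% of all tested genes were called higher with IFNα and 4.46% lower. OSM raised TIMP1 (1.68) and PLAU (297 ± 33.2 from 134 ± 28.8 CPM) and lowered MMP10 (-1.53), with a median of 0.02 against 0. IL-17A raised CCL2 (1.48) and lowered 2 targets, CD44 (-0.64) among them, with a median of 0.23 against -0.02. Of all tested genes, 1.42% were called higher and 2.54% lower with OSM, and 0.599% and 0.925% with IL-17A. With IL-6 and IL-22 none passed (medians -0.02 and 0.22 against 0 and -0.02), and OSM exceeded IL-6 in TIMP1 (1.51) and PLAU (1.04).

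Of 24 other early response genes 19 were tested. With TNF 2 were called higher and 1 lower (median 0.1, or 0.12 with genes at the floor set to their bound), with IL-1β 2 and 2 (-0.64, or -0.47), with TGF-β1 4 and 1 (0.2 both ways), with IFNα 2 and 0 (0.54, or 0.57) and with IFNγ 1 and 2 (0.38, or 0.32). Of all tested genes, 5.37% were called higher and 6.09% lower with TNF, 3.46% and 3.92% with IL-1β, 2.61% and 3.08% with TGF-β1, 4.99% and 4.86% with IFNα and 5.52% and 5.13% with IFNγ. IER3, an early response gene linked to survival, rose with TNF (log2 difference 2.95), IL-1β (3.22), IL-17A (2.01), TGF-β1 (1.95) and IFNγ (1.73). CCN2, a matricellular target of SRF and YAP, rose with TGF-β1 (2.02) and IFNα (1.35) and fell with IL-1β (-1.48), where the nuclear receptor NR4A2 rose (2.24). EGR2, the relative of EGR1, was called higher with TGF-β1 at 10.4 ± 2.94 CPM, from a group at or under 3 counts. IL-17A gave 1 call each way (-0.4, or -0.26) and IL-13 none higher and 1 lower (0.24, or 0.32), and OSM, IL-6 and IL-22 gave none (0.08, -0.07 and 0.16, or 0, -0.07 and 0.11). The shares of all tested genes were 0.599% and 0.925% with IL-17A, 1.53% and 2.4% with IL-13 and 1.42% and 2.54% with OSM.

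Among 18 tested of 24 other basic leucine zipper factors, 3 were called higher and 3 lower with TNF (5.37% and 6.09% of all tested genes), 0 and 3 with IL-1β (3.46% and 3.92%) and 1 and 3 with IFNγ (5.52% and 5.13%). MAF, which can bind AP-1-like sites, fell with TNF (10.1 ± 1.74 from 84.4 ± 29 CPM, log2 difference -3.05, edgeR adjusted p = 4.56e-09), IFNγ (-1.56), IFNα (-1.31), TGF-β1 (-1.19) and IL-1β (-0.95). JDP2, a repressor that pairs with JUN, fell with TNF (-2.22), IL-1β (-1.59), TGF-β1 (-1.39) and IFNγ (-1.24). DDIT3, the stress factor CHOP, fell with IL-1β (-1.51), IL-17A (-1.08), TNF (-0.81) and IFNγ (-0.59) and rose with IL-13 (0.82), as did ATF4 (0.82). CREB3 (2.06), ATF7 (1) and MAFF (7.16 ± 3.17 from 1.02 ± 0.862 CPM) rose with TNF, CREM with IFNγ (0.9) and NFE2L2 with IFNα (0.59). List medians lay between -0.08 (IL-17A) and 0.14 (IL-13).

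The 25 kinases and SRF partners upstream of FOS and JUN, 17 of them tested, had medians between -0.27 (IL-6) and 0.26 (IL-1β). With IL-1β 3 were called higher and 0 lower (3.46% and 3.92% of all tested genes), and with TNF 1 and 1 (5.37% and 6.09%). TGF-β1 and IFNα each called 0 higher and 1 lower. These shares were 2.61% and 3.08% of all tested genes with TGF-β1 and 4.99% and 4.86% with IFNα. The other cytokines gave none. IL-1β raised MAP3K8 (log2 difference 2.39), NAB1, a co-repressor of EGR1 (1.46), and RPS6KA3 (0.93). Any link between these rises and the level of EGR1 RNA was not tested. TNF raised RPS6KA3 (0.75) and lowered MAP3K1 (1.34 ± 1.37 from 9.68 ± 3.17 CPM), TGF-β1 lowered MAP3K7 (-0.86) and IFNα lowered ELK4 (-1.21).

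In the remaining lists, TNF against IL-1β called 2 of 19 early response genes higher and 1 lower, and 1 of 18 leucine zipper factors lower. IFNα against IFNγ called 5 and 1 early response genes and 1 and 0 factors. TGF-β1 against IL-13 called 5 and 1 early response genes, 1 and 4 factors and 1 of 17 kinases lower. Shares of all tested genes called higher and lower were 0.452% and 0.694%, 4.93% and 4.46%, and 6.05% and 6.39% in this order. OSM against IL-6 gave none in these lists. TNF exceeded IL-1β in CCN2 (1.01) and CCN1 (0.83) and was lower in MAF (-2.11) and ZFP36L1 (-0.84). IFNα exceeded IFNγ in GADD45A (1.42), CCN2 (1.03), KLF6 (0.86) and NFE2L2 (0.75) and was lower in IER3 (-1.56). TGF-β1 exceeded IL-13 in NR4A2 (28.7 ± 17.9 against 1.18 ± 1.04 CPM), EGR2, IER3 (2.88) and BACH1 (1.39) and was lower in JDP2 (-2.39), CEBPD (-1.58), MAF (-1.45) and KLF6 (-1.32).

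Genes whose 11 group means of log2 CPM lay closest to those of each member were ranked by Pearson's r as a description, from high to low, among tested genes with a mean log2 CPM of at least 4. For FOSL1 these were MED6 (0.878), CTSK and HSPA1A (0.825), and for FOSL2 NDUFV3 (0.946), NEIL2 (0.932) and LARP1 (0.928). For EGR1 they were ZEB1 (0.839), ZFYVE21 and SMURF2 (0.82), and for JUND CHCHD1 (0.869), SASH1 (0.865) and FMR1 (0.852). For JUN they were ARHGAP5 (0.875), HELZ (0.857) and NEK1 (0.83), and for JUNB DDA1 (0.814), MRPL41 (0.766) and YKT6 (0.765). The 11 points share their libraries and the normalization factor.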

How the data were processed

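Bulk RNA-seq of Ccd-18Co comprised 44 libraries (11 groups of 4), grouped by their titles. Per the labels, the authors used kallisto (version 0.48.0) for quantification after read checks in FastQC (0.11.9) and MultiQC (1.14), and hg38 is the build they name. They deposited estimated counts per gene symbol, not scaled for depth, of which 5.77% are not whole. The transcriptome release and the use of strand are not given in the sources used here, so reads of overlapping genes could not be told apart.

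The members and lists were chosen with earlier results of these data known. Estimated counts were rounded to whole numbers in R (version 4.3.3) and filtered by edgeR's filterByExpr with the 11 groups. A single quasi-likelihood model with TMM normalization covered all 44 libraries in edgeR, version 4.0.16 (glmQLFit and glmQLFTest, two-sided). P-values were adjusted by Benjamini-Hochberg over all 9513 tested genes in each comparison, and an adjusted p under 0.05 counted as a call. Named genes were all 9 members, at most 3 called genes of largest change in each direction per list and comparison, and the 3 genes most like each member. Some genes of the lists are counted but not reported here by name. A group with at most 3 counts in every library was treated as not measured, and folds against it are lower bounds. Intervals and floors cover counting error only where they rest on counts, because PCR copies were not marked in these reads. In 66 pairs of same-group replicates the lowest chi-square per degree of freedom was 3.21, above sampling noise, and 0 pairs were identical.

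Positions, transcript lengths and GC content came from GENCODE release 44 (GRCh38), to which 99.23% of symbols matched, and promoter windows from RefSeq (GRCh38.p14), which held 8 of the 9 members. The code was tested on simulated data. Alternatives were DESeq2's size factors and Wald test (version 1.42.0), other count filters, only the libraries compared, a block for the replicate number, calls that also exceed an absolute log2 fold change of 1.5, leaving out each library, and the log2 normalization factor as a covariate, the last chosen after seeing the data.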

Additional observations from a re-analysis of the deposited data

Results flagged for a closer look

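FOSL2 in TGF-β1 replicate 4 was at 294 CPM, far from the other TGF-β1 libraries (121 CPM or less). That library had a normalization factor of 0.93, against 1.05 to 1.15 in the other 3. EGR1 in TNF replicate 2 was at 602 CPM, far from the other TNF libraries (379 to 413 CPM), and its factor was 0.93 against 1.01 to 1.07. These were 2 of 63 groups of a member's values in which the gap to the nearest library was compared with the range of the group, and chance gives such a gap in about 1 of 20 groups. The part of library composition in these values was not tested.

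The direct tests between cytokines called FOSL1 (log2 difference 1.58, TNF minus IL-1β), EGR1 (-1, OSM minus IL-6) and FOSL2 (-2.21, TGF-β1 minus IL-13). These differences with the normalization factor as a covariate were 1.27, -0.81 and -1.14. Of 8 fits without 1 library, the call was lost in 4 for FOSL1, in 8 for EGR1 and in 0 for FOSL2.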

How the results depend on the processing

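Counts of members called depended on the settings as follows, with the value of the main analysis in brackets. Without a filter on low counts, the count was 4 with TNF (2), 2 with IL-13 (1), and 1 each with IFNα, IFNγ and IFNα against IFNγ (0 each). With the log2 normalization factor as a covariate it was 4 with TNF (2), 2 with IL-1β (1), 2 with OSM (1), 2 with IFNα (0), 1 with IFNγ (0), 1 for IFNα against IFNγ (0), 2 for OSM against IL-6 (1) and 2 for TGF-β1 against IL-13 (1). With IL-13 the count of 1 was EGR1 in place of FOSL1. An absolute log2 fold change above 1.5 left 1 with TNF and 0 with IL-1β, OSM, IL-13, TGF-β1 and OSM against IL-6. With only the 8 libraries compared, JUNB did not pass the count filter, so that the count was 0 with IL-17A and the 2 with TNF were FOSL1 and EGR1 (adjusted p = 0.0335 for EGR1, edgeR) in place of FOSL1 and JUNB. In these fits the count was also 0 with IL-13 and TGF-β1 (adjusted p = 0.0753 and 0.0533, edgeR). With DESeq2's size factors, and with a filter of 10 counts in 4 or more libraries, it was 0 with OSM and for OSM against IL-6 (EGR1 adjusted p 0.0545 to 0.0568, edgeR). DESeq2's Wald test called 3 with TNF (EGR1 was added, adjusted p = 0.0484) and 2 with OSM, and gave no adjusted p for JUNB with IL-17A. The cause of these changes was not tested.

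Leaving out 1 library gave 1 to 3 members with TNF, 1 to 2 with IL-1β, 0 to 2 with OSM, 0 to 1 with IL-17A, IL-13, TGF-β1, IFNγ, TNF against IL-1β and IFNα against IFNγ, 0 for OSM against IL-6, IL-6, IL-22 and IFNα, and 1 for TGF-β1 against IL-13. Lone or reduced groups shared the spread of all groups. FOSL2 with IL-1β ranged from -0.4 to 0.11 when 1 library was left out. FOSL2 turned to 0.11 with IL-1β without unstimulated replicate 3 (from -0.16) and to -0.11 with IL-13 under the covariate (from 0.78), neither of them called. All 330 recomputed group levels moved by less than 1 SD. For levels recomputed without 1 library this had to hold, because leaving out 1 library cannot move a group mean by 1 SD. The stability of group levels is therefore not judged from this count.

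Same-numbered replicates correlated at -0.13 to 0.28 in their deviations. In 0 of 14 comparisons did every library correlate best with its own number. The number that did ranged from 0 of 8 libraries (TGF-β1 against IL-13) to 7 of 8 (IL-6 against unstimulated). The libraries were not treated as paired in the main analysis, and whether same-numbered libraries share more than a number was not tested. The replicate block gave 3 members with TNF (EGR1 was added, edgeR adjusted p = 0.0489) and left the other counts as they were. Depth limits FOS, FOSB, ATF3 and JUNB, which had at most 23 counts in any library.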
